A study of Mus musculus with 15 samples.

Results

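The binding of Rad21 was measured by chromatin immunoprecipitation and sequencing (ChIP-seq) in 2 libraries, each deposited as a list of peaks. Peaks are the stretches where reads of the immunoprecipitated DNA exceed the background. The libraries are those whose labels name Rad21 ChIP-seq of wild type cells as replicate 1 and replicate 2, and they are 2 of the 15 samples of the series. On chromosomes 1 to 19 and X, with each set of coordinates counted once, replicate 1 held 38430 peaks and replicate 2 held 48462, together 86892 of the 185702 peaks of the 5 lists of the series. The cells were primary CD69-negative CD4+CD8+ cells from the thymus of wild type C57BL/6 mice, with no transgene or treatment named in the labels. From the same cells come 1 CTCF list and 2 H3K27ac lists, used here to class Rad21 peaks, while Hi-C samples, some from knockout cells, and input samples were left aside. The labels do not say whether the replicates came from separate mice, so differences between them can be technical. A peak list carries no depth, which is therefore unknown for either library, and its part in the different lengths of the lists was not tested.

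Cohesin is a ring-shaped complex of Smc1, Smc3, Rad21 and a Stag subunit that embraces DNA and extrudes it into loops, and Rad21 is the subunit that closes the ring. CTCF is a zinc-finger protein whose binding motif has a direction, and extruding cohesin is known to halt at CTCF on the side of its N terminus. Cohesin is loaded with the help of Nipbl and is also found at active promoters and enhancers, which carry acetylation of histone H3 at lysine 27 (H3K27ac). CD4+CD8+ thymocytes are the stage at which the T cell receptor alpha locus is rearranged and both coreceptors are present.

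In 10 of the 12 Rad21 regions with the best fold enrichment in both lists, both highest summits had the same nearest CTCF motif. The fold is the enrichment over background as the authors' peak caller gave it. These 10 regions are shown because they carry the direction of the Rad21 summit relative to the motif that is measured further on. Each line gives 52 bases of mm9, 5′ to 3′ on the strand of the motif, and the capitals mark the match to the CTCF core motif, spelled CCA, any 2 bases, AG, any 2 bases and GGC, with 1 mismatch allowed. Regions are named by the protein-coding gene whose transcription start site (TSS) is nearest.
Snx18 (chr13:114408890-114408941, minus strand): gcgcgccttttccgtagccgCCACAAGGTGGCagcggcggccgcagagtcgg
Emid1 (chr11:5015122-5015173, plus strand): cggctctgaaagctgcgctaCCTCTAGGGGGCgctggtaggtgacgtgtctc
Fabp5 (chr3:9947847-9947898, minus strand): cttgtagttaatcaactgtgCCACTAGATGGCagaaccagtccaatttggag
Ano6 (chr15:95556412-95556463, plus strand): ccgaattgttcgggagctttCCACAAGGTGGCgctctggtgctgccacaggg
Lamb3 (chr1:195156508-195156559, plus strand): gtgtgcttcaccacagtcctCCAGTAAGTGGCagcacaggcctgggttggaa
Pdcd1 (chr1:95975868-95975919, minus strand): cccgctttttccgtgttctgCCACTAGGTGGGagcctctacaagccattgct
1810063B07Rik (chr14:20886728-20886779, minus strand): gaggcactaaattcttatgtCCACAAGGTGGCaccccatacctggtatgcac
Bphl (chr13:34138411-34138462, plus strand): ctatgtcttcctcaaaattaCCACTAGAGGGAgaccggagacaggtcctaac
Chst3 (chr10:59611004-59611055, plus strand): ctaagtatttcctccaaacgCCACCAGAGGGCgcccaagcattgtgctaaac
Foxo1 (chr3:52066486-52066537, plus strand): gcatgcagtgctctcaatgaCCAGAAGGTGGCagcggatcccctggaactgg
The motif matched exactly in 6 of them and had 1 mismatch in Emid1, Lamb3, Pdcd1 and Bphl. Of the other 2 regions, Ppp2r5c, with folds of 93.7 and 86.6, held no match within 50 bp of its summits, and in Nckap5l, with 75.3 and 86.1, the summits had different nearest matches. The Snx18, Lamb3 and Bphl regions overlap exons, although the printed stretches do not, and the Snx18 region covers its TSS. The Emid1 site lies in an intron of that gene, 13550 bp from its TSS, and the other 6 are intergenic, between 5541 bp (Foxo1) and 64464 bp (Ano6) from the nearest TSS. The Fabp5 region had folds of 81.0 in replicate 1 and 96.0 in replicate 2, and its highest summit lay 14.5 and 13.5 bp 3′ of the motif centre. The Pdcd1 region had folds of 78.7 and 95.4, with summits 36.5 and 39.5 bp 3′ of the centre. In 9 of these 10 regions both Rad21 summits lay 3′ of the motif centre, and in Emid1, with folds of 92.5 and 101.3, they lay 34.5 and 35.5 bp 5′ of it.

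Around genes, Rad21 peaks gathered at starts. A gene's neighbourhood was its body plus 20 kb on either side, for the 22208 protein-coding gene symbols of the mouse annotation. At least 1 Rad21 peak lay in the neighbourhood of 15395 genes in replicate 1 (69.3% of all genes) and 15973 in replicate 2 (71.9%). In both lists at once this was so for 14982 genes (67.5%), and 5822 genes (26.2%) had no peak in either. With the gene body alone, 8989 genes had a peak in both lists. The median number of peaks per gene was 2 in each list, and the median density was 2.32 and 3.01 peaks per 100 kb of neighbourhood. In the first 1 kb upstream of the TSS there were 18.8 highest summits per 100 genes in replicate 1 and 25.3 in replicate 2, and in the first 1 kb downstream 18.7 and 25.7. Between 2 and 3 kb downstream these fell to 3.03 and 4.08. At gene ends the step was small, from 2.94 and 3.56 summits per 100 genes in the last 1 kb of the gene to 4.34 and 5.23 in the first 1 kb past it. Promoters, taken as 2000 bp on either side of a TSS, held 30.3% and 31.8% of highest summits, introns 30.1% and 30.3%, other exons 3.42% and 3.16%, and the rest was intergenic.

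Peak density differed between chromosomes. Chromosome 11 had most Rad21 peaks per Mb, 27.1 in replicate 1 and 32.8 in replicate 2, and the X chromosome fewest, 4.77 and 6.25. Over the 20 chromosomes, as a description, the correlation of peaks per Mb with protein-coding genes per Mb was 0.808 and 0.789 (Pearson) and 0.860 and 0.850 (Spearman). Chromosome 7 stood apart: it had 13.54 protein-coding genes per Mb against 13.53 on chromosome 11, but 15.9 and 19.4 peaks per Mb. The points of a list share its library. Across the 22208 genes the peaks per 100 kb of the lists had a Pearson correlation of 0.909 and a Spearman correlation of 0.916, over genes that are not independent since neighbourhoods overlap.

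To find the genes most densely covered, genes were ranked in each list by peaks per 100 kb, and 12 were taken by the worse of the ranks, with 1 gene for each group of overlapping neighbourhoods. Supt4h1, which encodes a subunit of the DSIF elongation factor (chr11:87551054-87557125), led with 21 and 28 peaks, or 45.6 and 60.8 per 100 kb. Of these, 16 and 20 overlapped H3K27ac without CTCF and 4 in each list overlapped CTCF. Its neighbourhood also takes in the start of Bzrap1 and Mir142, a microRNA gene of blood cells. Cd8b1, the CD8 beta chain (chr6:71272830-71287471), had 19 and 34 peaks, or 34.8 and 62.2 per 100 kb, the highest density in replicate 2. Cd8a, its partner in the coreceptor, had 15 and 28 peaks (32.8 and 61.2 per 100 kb), some of them in a stretch shared with Cd8b1. At Cd8b1 15 and 29 of the peaks lay on H3K27ac without CTCF. Among the 12 genes Cd8b1 differed most in peak number between the lists, whereas Hmgb1, a chromatin protein gene (chr5:149858278-149865089), had 19 peaks in each.

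Rhoh, a small GTPase gene expressed in blood cells and needed for T cell receptor signalling (chr5:66254808-66287939), had 25 and 34 peaks, of which only 2 in each list overlapped CTCF. Btg2, an antiproliferative gene (chr1:135971747-135975697), had 15 and 18 peaks and 5 regions with several summits in both lists, the most among the 12. Tcf7, which encodes the T cell transcription factor TCF-1 (chr11:52065873-52096681), had 21 and 26 peaks, 16 and 21 of them on H3K27ac without CTCF. Psmb9, an immunoproteasome subunit gene of the major histocompatibility complex (chr17:34318933-34324709), differed from these: 9 of its 16 peaks in replicate 1 and 9 of its 17 in replicate 2 overlapped CTCF. Snai3, a Snail-family repressor gene (chr8:124978106-124984592), had 14 and 21 peaks and 4 other genes in its neighbourhood. Atp5h, an ATP synthase subunit gene (chr11:115277003-115281276), was alone among the 12 in having fewer peaks in replicate 2, 15 against 18. Arl5c (chr11:97850892-97857495) had 15 and 17 peaks, and the predicted genes Gm15409 and Gm17509 had 13 and 17, and 13 and 14. The strongest peak beside any of the 12 was at Gm17509 (chr13:118007508-118009882), with folds of 78.2 and 72.1.

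**Figure D1:**
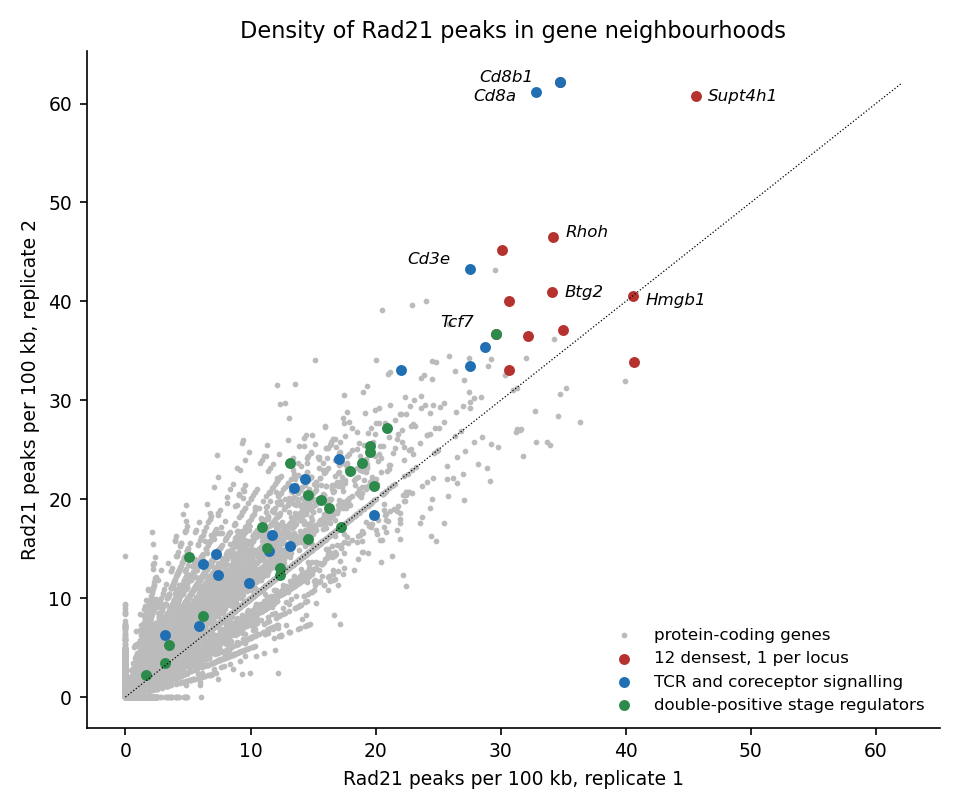
Rad21 peaks per 100 kb of neighbourhood in replicate 1 (x axis) against replicate 2 (y axis), 1 point per protein-coding gene, with 3 gene sets in colour and the line of equal density dotted. Cd8b1 and Tcf7 are among the 12 densest genes and carry the colour of their own list, Cd8a and Cd8b1 lie at 61.2 and 62.2 in replicate 2 but at 32.8 and 34.8 in replicate 1, and Supt4h1 is highest in replicate 1 at 45.6.

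The 200 densest genes of each list shared 121 genes. Membership of the 200 began at 19.97 peaks per 100 kb in replicate 1 and 23.7 in replicate 2. These 121 genes were short, with a median body of 6.60 kb against 15.5 kb for all genes, and stood close to others, with a median of 3 other genes in the neighbourhood against 1. The sites of other marks were dense there too: a median of 7.04 shared H3K27ac regions and 8.86 CTCF peaks per 100 kb, against 1.22 and 2.26 for all genes. CTCF overlapped 31.7% and 26.9% of the Rad21 peaks beside them, against 58.6% and 48.1% of the peaks beside all genes. The part of gene length and crowding in the ranking was not tested separately, but the choice of flank changed it: with the gene body alone 116 genes were shared, of which 17 were among the 121, and with 50 kb 127 were shared, of which 64 were. Without the flank Hmgb1 had a mean density over the lists of 110.1 peaks per 100 kb against 40.6 with it, and Supt4h1 32.9 against 53.2. With only peaks of a −log10 q of at least 5, the mean densities of the 12 named genes lay between 21.2 and 39.1 peaks per 100 kb, against 31.9 to 53.2 with all peaks.

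By number rather than density, long genes led. Gm20388, a predicted gene model of 4435 kb on chromosome 8 with 74 other genes in its neighbourhood, had 269 and 322 peaks, and Fgfr2, a growth factor receptor gene given a model of 3009 kb with 32 others, had 44 and 54. Among models of ordinary size, Eif4e3, a translation factor gene of 409 kb, had 42 and 65 peaks. Arid1b, a subunit gene of SWI/SNF chromatin remodellers, had 37 and 46, Clec16a 34 and 44, and Mad1l1, a spindle checkpoint gene, 31 and 38. The T cell factor genes Runx1 (chr16:92601712-92826311) and Ets1 (chr9:32443806-32565405) had 30 and 40, and 29 and 37. The makeup at Ets1 was lopsided: 27 and 33 of its peaks overlapped H3K27ac without CTCF and 2 in each list overlapped CTCF. At Fgfr2 it was the reverse, with 34 and 32 peaks on CTCF and 4 and 12 on H3K27ac alone.

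The longest genes with no Rad21 peak in either list were Il1rapl2, Lingo2, Opcml, Dab1 and Ctnna2, all with roles in neurons and with bodies between 1098 and 1276 kb. None of the 5 had a shared H3K27ac region in its neighbourhood. CTCF peaks were present all the same, 12 at Il1rapl2 (chrX:134105147-135381485), 6 at Dab1 and 3 at each of Lingo2, Opcml and Ctnna2. Each such neighbourhood therefore held CTCF peaks without any Rad21 peak.

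Gene lists set the thymocyte genes beside those of other cell types. Of the 19 genes for signalling by the T cell receptor and its coreceptors found in the annotation, 19 had peaks in both lists, against 67.5% of all genes, with a median of 13.5 and 18.4 peaks per 100 kb. Ptcra was not among the protein-coding symbols and is not counted. Of 22 regulators of the double-positive stage, 22 had peaks in both lists, with medians of 14.6 and 18.2 per 100 kb. Cd3e, Cd3d and Cd3g, which encode the CD3 chains and stand side by side, had 14 and 22, 13 and 16, and 14 and 17 peaks, largely the same ones. Cd4 had 14 and 21 peaks and 8 regions with several summits in both lists. Lck, the kinase that binds both coreceptors, had 13 and 12. Bcl11b, a T lineage commitment factor gene (chr12:109148613-109241812), had 26 and 33 peaks with folds up to 35.5 and 86.6. Satb1, a genome organiser gene, had 20 and 28, Ikzf1, encoding Ikaros, 22 and 22, and Rag1 and Rag2, the recombinase genes that share a neighbourhood, 10 and 13 each. At the low end, Zbtb7b, encoding the CD4-lineage factor ThPOK, had 2 and 3 peaks, and Tcf12, an E protein gene, 5 and 7 over a body of 268 kb.

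Genes of other cells lay nearer to the genome than to the thymocyte lists. Against 2.32 and 3.01 peaks per 100 kb for all genes, the median density was 1.62 and 3.54 peaks per 100 kb for 12 genes of mature and effector T cells, of which 7 had peaks in both lists. For B cell genes it was 2.67 and 3.77 (8 of 10), for myeloid genes 2.62 and 4.35 (9 of 12), for thymic epithelial genes 4.52 and 5.57 (9 of 10) and for erythroid genes 3.57 and 3.57 (7 of 10). No peak in either list lay beside 1 B cell gene (Ms4a1), 1 myeloid gene (Csf1r), 1 epithelial gene (Krt5), 2 erythroid genes (Gata1 and Alas2) and 3 genes of mature T cells (Il2, Gzmb and Cxcr3). Other members were densely covered: the myeloid factor gene Cebpb had 10 and 11 peaks (24.1 and 26.5 per 100 kb), Ccr7 of mature T cells 9 and 12, and Cd79a of B cells 6 and 6. Neuron genes had medians of 0 and 1.299 (5 of 11, with Map2 not found), and liver genes 0 and 0.897 (3 of 10). A peak is not a measure of expression, and RNA was not measured in these libraries.

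Large gene families ranged widely. Olfactory receptors had a peak in both lists beside 98 of 1113 genes (8.81%), vomeronasal receptors beside 10 of 321, keratins beside 17 of 51 and clustered protocadherins beside 1 of 24. That 1 protocadherin model had 13 and 15 peaks, 69.2% and 60% of them on CTCF. The 24 models had a median body of 3.47 kb, so the count depends on how the clusters are annotated. Hox genes had peaks in both lists beside 33 of 39, and 92.2% and 71.9% of those peaks overlapped CTCF. Core histone genes were a contrast, with 56 of 67, medians of 9.88 and 16.8 peaks per 100 kb and CTCF at 36.5% and 22.4% of peaks. Ribosomal protein genes of the cytosol, a symbol pattern that also takes in S6 kinase genes, had peaks beside 102 of 144, Zfp genes beside 267 of 367 and solute carriers beside 277 of 353, close to the 67.5% of all genes or somewhat above it. Cohesin's own machinery had peaks in both lists beside 14 of 15 genes at medians of 3.26 and 4.38. Within it Ctcf had 10 and 14, Nipbl, the loader gene, 11 and 9, and Rad21 itself 1 and 2. Smc1a, the exception, had 0 and 2.

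**Figure D2:**
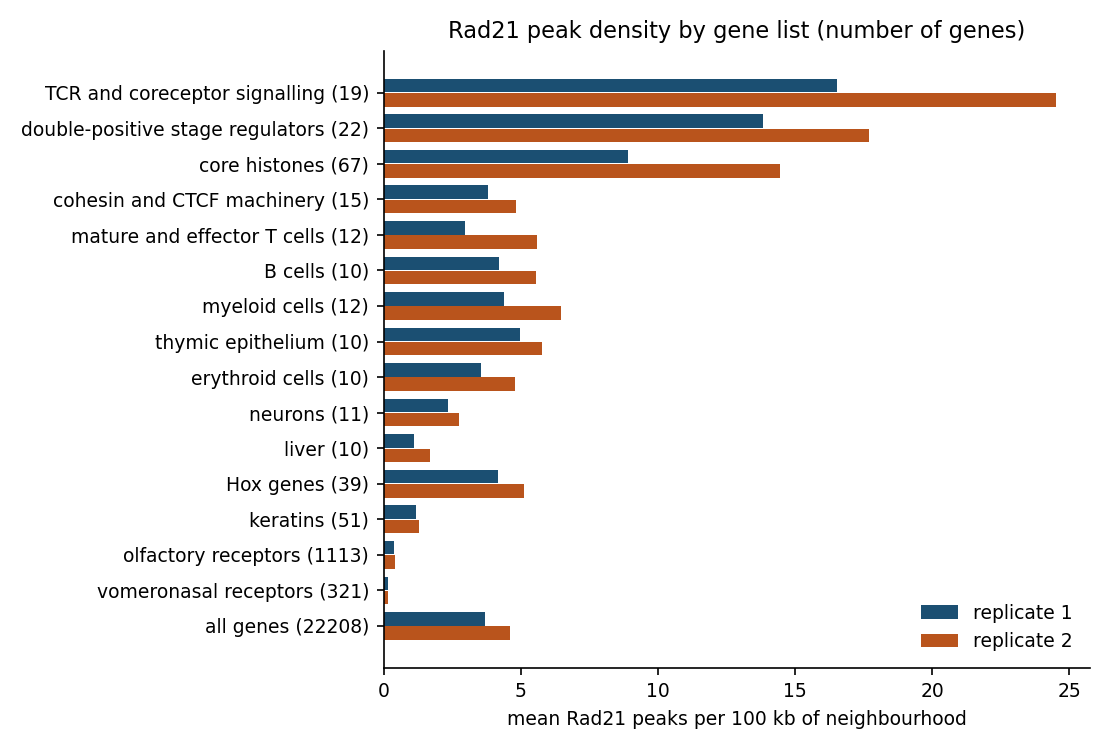
Mean number of Rad21 peaks per 100 kb of neighbourhood (x axis) for 15 gene lists and all genes, with 1 bar per replicate and the number of genes in brackets. Signalling genes of the T cell receptor and regulators of the double-positive stage have the longest bars in both replicates, core histones follow, and olfactory and vomeronasal receptors have the shortest.

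Rad21 peaks were narrow and had a floor. The median width was 228 bp in replicate 1 and 237 bp in replicate 2, a mean of 232.5 ± 6.36 bp (SD, n = 2 lists). The smallest width, 138 bp in replicate 1 and 140 bp in replicate 2, was held by 3234 and 4941 peaks, 8.42% and 10.2% of the lists, so many peaks stood exactly at a floor that no peak of their list fell below. Only 95 and 258 peaks were wider than 1000 bp, and the widest had 3855 and 3864 bp. Between peaks the median gap was 14454 and 10598 bp, and 13.6% and 18.04% of gaps were under 1000 bp.

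Width depended on what else was at the site. Peaks were put in 4 classes by overlap with a CTCF peak and with an H3K27ac region found in both lists of that mark. CTCF without H3K27ac took in 18073 and 18719 Rad21 peaks, H3K27ac without CTCF 10849 and 15900, both marks 4028 and 4158, and neither 5480 and 9685. The median width was 238 and 254 bp at CTCF alone, 224 and 239 bp at H3K27ac alone, 296 and 347 bp at both and 168 and 175 bp at neither. H3K27ac-only peaks were thus slightly narrower at the median, with a ratio of 0.941 to CTCF-only peaks in each list, yet wider in the tail: the widest 1% began at 818 and 949 bp there against 498 and 573 bp at CTCF alone. The direction at the median turned when only peaks with a −log10 q of at least 5 were kept, where the ratio was 1.15 ± 0.0124 (SD, n = 2 lists). Wide peaks were nearly all in acetylated chromatin. Among those over 1000 bp, 96.8% and 97.7% overlapped H3K27ac and 64.2% and 65.1% overlapped a promoter, whereas of those up to 200 bp 35.8% and 37.7% overlapped H3K27ac. A wide peak has more chance to touch another region. When the highest summit alone had to lie in the other region, a class rule added after the data were seen, the ratio of medians was 0.944.

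**Figure D3:**
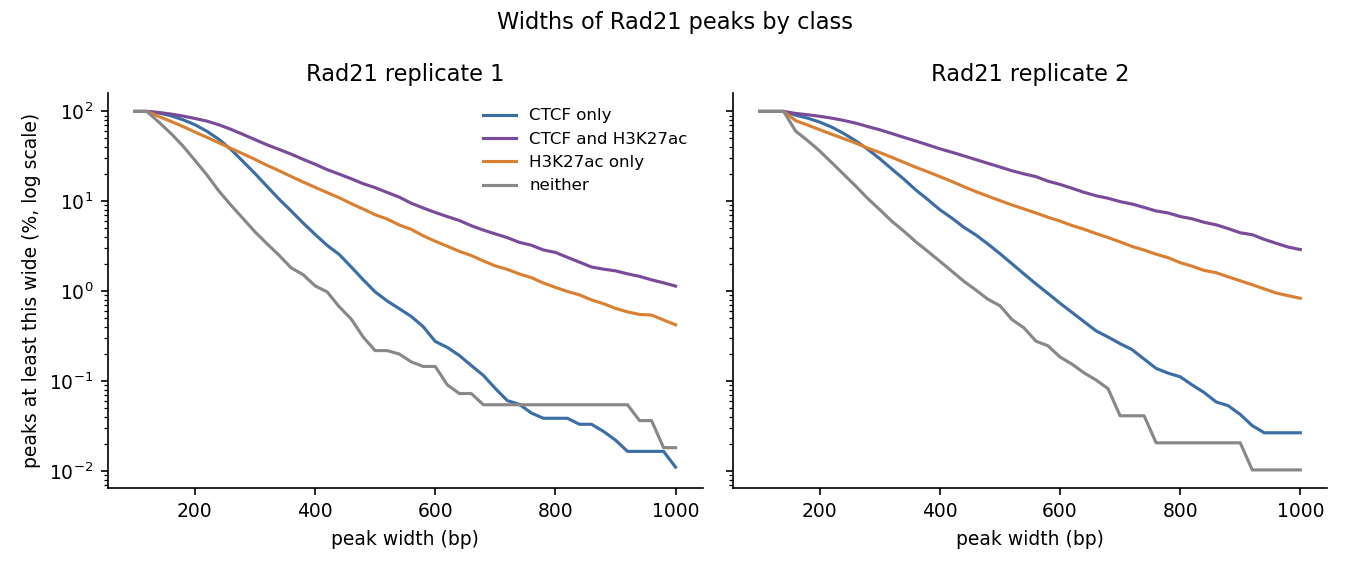
Share of Rad21 peaks at least as wide as the value on the x axis (bp), on a log scale in percent, by class of overlap with CTCF and H3K27ac and for each replicate. The curves of H3K27ac-only and CTCF-only peaks cross near the median, and beyond 500 bp both classes with H3K27ac lie above both without it.

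A peak can hold several summits, which are separate maxima of the read pileup that the caller lists under the same coordinates. Several summits were listed for 1245 peaks of replicate 1 (3.24%) and 2182 of replicate 2 (4.50%), a mean of 3.87 ± 0.893% (SD, n = 2 lists). At most 11 and 10 summits shared a peak, and 154 and 354 peaks had 3 or more. Neighbouring summits of a peak were a median of 250 and 267 bp apart. Width rose with the number of summits, from a median of 224 and 231 bp with 1 summit to 542 and 579 bp with 2 and 964 and 1004.5 bp with 3 or more. The median fold was 7.56 and 7.45 with 1 summit, 9.51 and 10.2 with 2, and 11.5 and 13.4 with 3 or more. The fold of a peak is that of its highest summit, so it can rise with the number of summits by itself. A peak must also be wide enough to hold summits that stand apart. The part of either in these trends was not tested.

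Several-summit peaks were concentrated at acetylated sites. Their share was 6.53% and 7.86% of H3K27ac-only peaks and 9.73% and 16.4% of those with both marks, but 0.675% and 1.00% of CTCF-only peaks and 0.420% and 0.640% of those with neither. The difference between H3K27ac-only and CTCF-only peaks was 6.35 ± 0.712 percentage points (SD, n = 2 lists), and the shares of these classes do not overlap between the lists. The median fold was 12.1 and 13.5 at CTCF alone and 10.8 and 12.8 with both marks. It was 5.54 and 5.85 at H3K27ac alone and 5.398 and 5.61 at neither. The part of peak strength in the several-summit shares was not tested. With the class set by the highest summit alone the difference was 6.87 percentage points. Of peaks with 3 or more summits, 95.5% and 98.6% overlapped H3K27ac and 67.5% and 68.1% a promoter, against 37.0% and 39.2%, and 30.1% and 31.2%, of peaks with 1 summit.

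Multi-summit regions recurred between the lists. Peaks of both lists were merged into regions, and 30959 regions had a peak of each. A region's summits in a list are those of all its peaks there, so separate peaks of 1 summit each count as several. A region had several summits in replicate 1 in 1903 cases, in replicate 2 in 2405 and in both in 1172. Of those with several summits in replicate 1, 61.6% (95% Wilson interval 59.4 to 63.7%, for counting error only) had several in replicate 2, against 4.24% of those with 1 summit in replicate 1. The reverse shares were 48.7% and 2.56%. A wide peak of 1 list can join separate peaks of the other, so merging itself can add to these shares, and its part was not tested. Counted over single peaks instead of merged regions, an alternative added after the data were seen, the first share was 49.8%. No such share was computed for peaks with 1 summit. By class the regions with several summits in both lists made up 12.2% of those with both marks, 7.84% of those with H3K27ac alone, 0.585% of those with CTCF alone and 0.372% of those with neither. Summit positions were less repeatable. Where both lists had several, the highest summits were a median of 44 bp apart, against 15 bp where both had 1. Of the 2707 summits of several-summit peaks in replicate 1, 45.95% lay within 50 bp of a replicate 2 summit. Of the 4889 in replicate 2, 40.3% lay within 50 bp of a replicate 1 summit. The median distance to a summit of the other list was 59 and 76 bp. What unrelated positions would give was not tested.

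A region with several summits in both lists lay beside 1421 of 22208 genes (6.4%). It lay beside 14 of the 19 signalling genes and 17 of the 22 double-positive regulators, beside 86 of the 121 densest genes and beside 22 of 67 core histone genes. These groups also had more peaks of any kind per gene, and the 121 were chosen by peak density. Their median peak numbers were 13 and 16, 11 and 14, 13 and 14, and 4 and 7, against 2 and 2 for all genes. The part of peak number in these counts was not tested. Neighbourhoods overlap, so 1 region can count for several genes, and the counts are not counts of separate loci. Of the cohesin machinery 3 of 15 genes had one, of thymic epithelium 2 of 10, and of B cells and myeloid cells 1 each, of 10 and 12. None of the genes of mature T cells, erythroid cells, neurons or liver did, nor any Hox gene. Lists of 10 to 12 genes are short for a share of 6.4%, so a count of 1 or none does not set them apart from all genes. Median peak numbers were 1 and 2 for mature T cells, and 2 and 2 for erythroid cells and for Hox genes. For neurons they were 0 and 1, and for liver 0 and 0.5.

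The widest single peak of each list was at Cd4. The region spans the start of the gene (chr6:124834841-124838705, overlapping exons), and it was a single peak of 3855 bp in replicate 1 and 3864 bp in replicate 2, with ends that differed by 1 bp on the left and 10 bp on the right. Among the 68 regions with a peak over 1000 bp in each list, the median difference was 73.5 bp on the left and 64 bp on the right, and 3 regions had both ends within 10 bp. The Cd4 peak had 11 summits in replicate 1, with folds from 3.29 to 12.4, and 9 in replicate 2, with folds from 5.58 to 21.1. Its highest summits, 516 and 523 bp from the left end, lay in an intron. The CTCF peak inside the region had a fold of 2.28 in the CTCF list, the second lowest among the 8 widest regions. At Cd8b1 and its divergent neighbour Smyd1, a muscle gene, the region chr6:71272070-71276173 held 4 peaks in each list with 8 and 9 summits. Its highest summits, with folds of 29.1 and 26.1, lay upstream of Cd8b1, and a further summit at its far side reached 19.5 and 21.005. The bases around the highest replicate 1 summit of these coreceptor regions follow, plus strand, and capitals mark CTTTGA, the core bound by the T cell factors TCF-1 and LEF-1. They were picked for display after their values were seen, and neither window holds the CTCF motif.
Cd4 (chr6:124835307-124835407, intron): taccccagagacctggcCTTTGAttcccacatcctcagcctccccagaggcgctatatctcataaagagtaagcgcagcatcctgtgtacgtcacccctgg
Cd8b1 (chr6:71272594-71272694): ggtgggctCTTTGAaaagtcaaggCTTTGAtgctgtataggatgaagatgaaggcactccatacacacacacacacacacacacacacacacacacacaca
The Cd4 window holds 1 such match and the Cd8b1 window 2. The Cd8b1 window ends in a CA repeat, where short reads can be hard to place.

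The other wide regions were mostly promoters. Lbh, a gene of a transcriptional cofactor (chr17:73266527-73269466), had 9 and 8 summits with folds up to 24.4 and 16.4. Socs1, a cytokine signalling inhibitor gene (chr16:10784032-10786849), had 6 and 7 summits and folds up to 59.4 and 56.6, with 3 CTCF peaks inside. Marcks, a gene of a membrane-bound actin regulator (chr10:36855934-36859251), had 9 and 7 summits, of which 1 stood far above the rest at 51.8 and 82.2. Rreb1 (chr13:37916842-37919666) and Cux1 (chr5:137041842-137043887), both transcription factor genes, had 5 and 8, and 5 and 5 summits. An intergenic region 25123 bp from the TSS of Dad1 (chr14:54846498-54848466) had 6 and 6 summits with folds up to 73.4 and 80.8. By summit number 3 more entered: Btg1, an antiproliferative gene (chr10:96078738-96081079), Klf13, a zinc-finger gene (chr7:71080924-71083614), and a region of Myb (chr10:20877790-20880194), a proto-oncogene needed in thymocytes. The Myb region lay in an intron but 596 bp from the TSS, so it counts as a promoter region too. Btg1 had 8 and 7 summits with folds up to 12.3 and 17.0 and no CTCF peak within 168910 bp. The Myb region had 7 and 7 summits, and Klf13 6 and 10.

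A wide region of another kind stood on chromosome 17. At chr17:39980000-39983678, intergenic in the protein-coding annotation and 361876 bp from the TSS of Pgk2, replicate 2 had a single peak of 3679 bp with 7 summits and replicate 1 had 2 peaks with 9 summits. Folds were low, 4.30 and 5.92, no shared H3K27ac region was present, and the 2 CTCF peaks inside had a highest fold of 1.65. In mm9 this place is known to carry a copy of the ribosomal RNA precursor, a sequence that the genome holds in many copies. The part of repeated sequence in this peak was not tested.

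**Figure D4:**
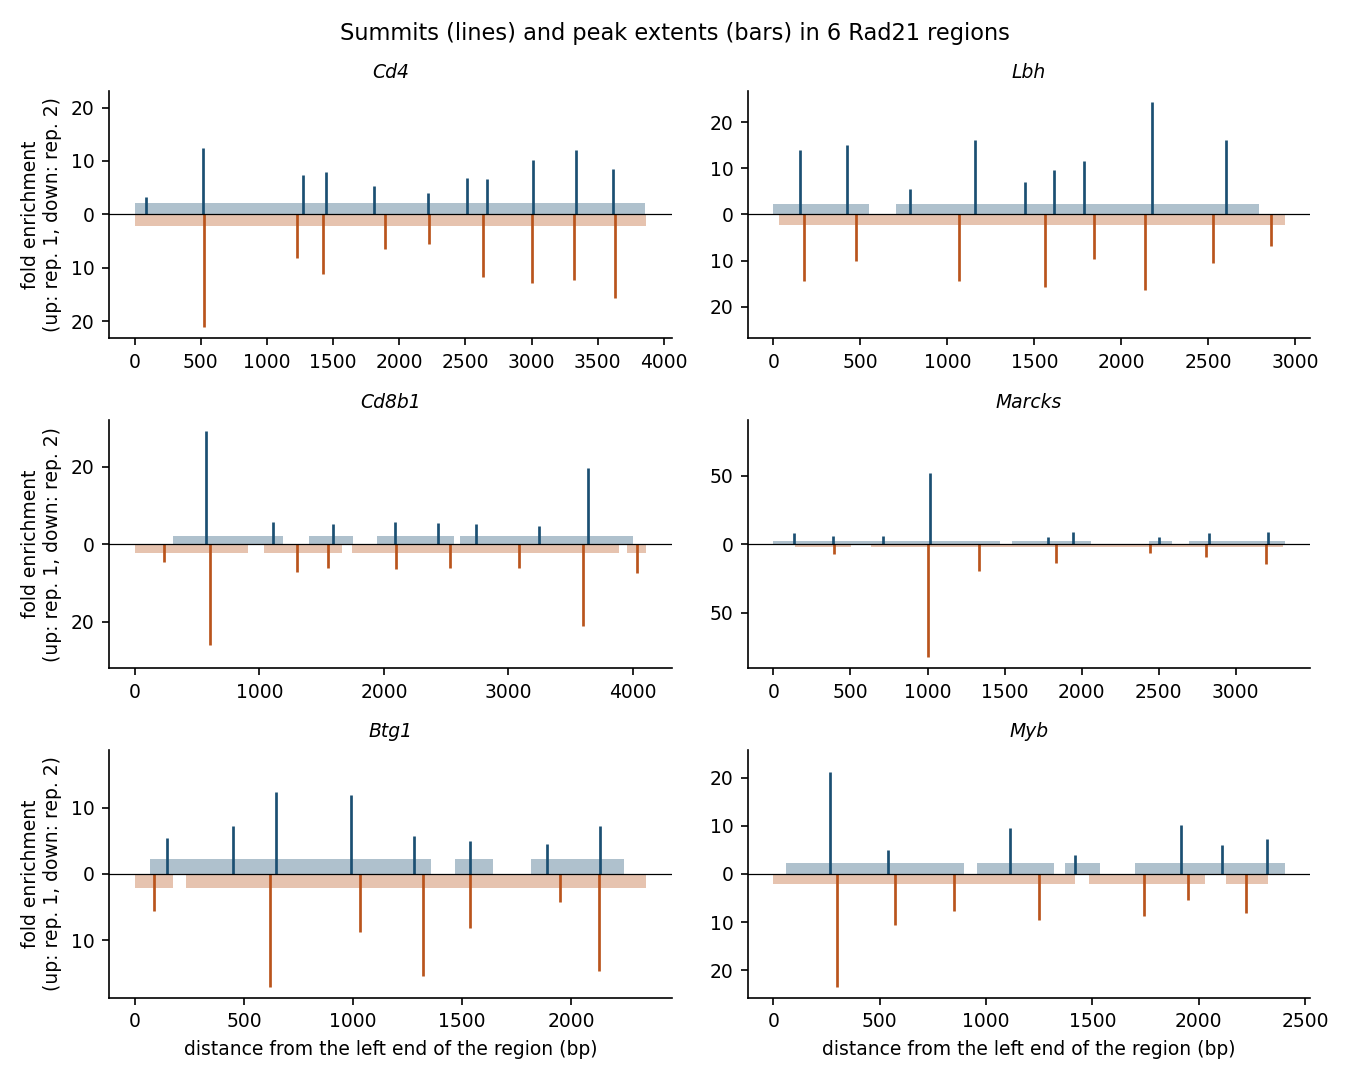
Summits (vertical lines, height is the fold enrichment given by the authors' caller) and peak extents (shaded bars of arbitrary height) in 6 regions, against the distance in bp from the left end of the region, with replicate 1 upward and replicate 2 downward. At Cd4 the extents nearly coincide, and at Marcks 1 summit of each list, at 51.8 and 82.2, stands far above the others.

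Around the CTCF motif Rad21 sat to one side. The CTCF core motif spelled out above, searched on both strands with at most 1 mismatch, was found within 50 bp of the highest summit in 55.0% of replicate 1 peaks and 48.0% of replicate 2 peaks. Windows of the same length placed 1000 bp downstream held it in 8.75% and 8.65%. Among CTCF-only peaks the share was 84.7% and 83.7%, with both marks 52.8% and 50.9%, and at H3K27ac alone 13.4% and 12.2%. Peaks with neither mark held it in 41.4% and 36.3%, far above their downstream windows at 8.43% and 8.11%, although the CTCF list had no peak there. Several-summit peaks held it in 31.1% and 27.9%.

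Measured along the motif strand, the Rad21 summit lay a median of 8.5 bp 3′ of the motif centre in replicate 1 and 7.5 bp in replicate 2, and 72.1% and 69.03% of summits were on the 3′ side. Strands were used evenly, with 49.7% and 49.7% of motifs on the plus strand. CTCF's own summits had a median of -1.5 bp, with 45.8% on the 3′ side. In 15700 shared regions with 1 summit in each list and 1 CTCF peak with a motif, the medians were 9.5 and 9.5 bp for Rad21 and -1.5 bp for CTCF. Rad21 minus CTCF was a median of 10 bp in each list. Both Rad21 summits were 3′ of the centre in 59.7% of these regions and both 5′ in 12.8%. The printed sites follow this, with Emid1 among the minority. The antibodies differ between these libraries, and their part in the distance was not tested.

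**Figure D5:**
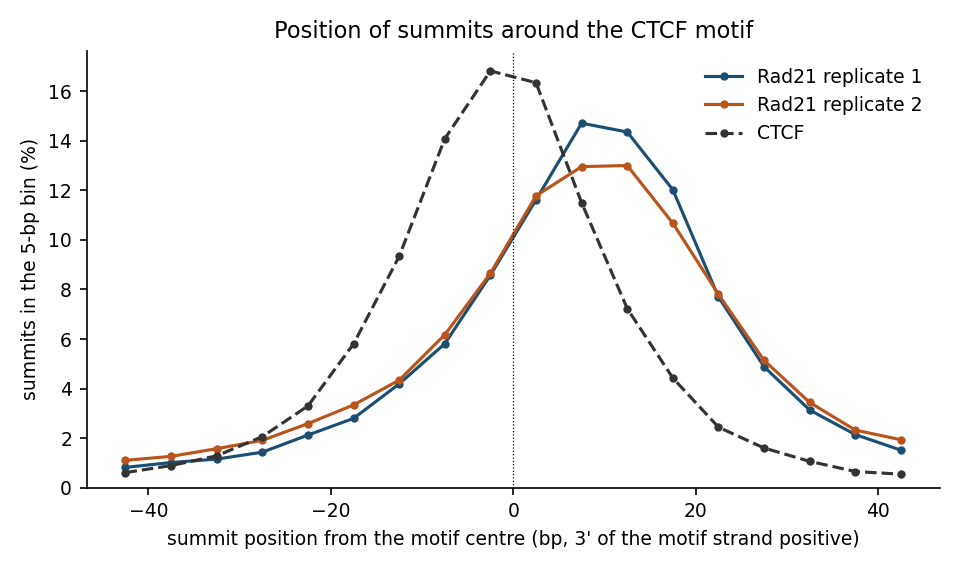
Position of the highest summit from the centre of the nearest CTCF motif (x axis, bp, positive to the 3′ side of the motif strand) as the percentage of summits in each 5-bp bin (y axis), for Rad21 replicates 1 and 2 and for CTCF. Rad21 has its highest bins, 14.7% in replicate 1 and 13.0% in replicate 2, between 5 and 15 bp on the 3′ side, and CTCF has its highest, 16.8%, just 5′ of the centre.

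Of 4 other short motifs, 3 were more frequent at H3K27ac-only peaks than 1000 bp downstream, and 2 of these, Runx and E protein, also at CTCF-only peaks. These motifs were searched exactly, on both strands, in the same windows, and were picked as cores of factors active in thymocytes. The Ets core GGAAGT was present in 14.2% and 13.4% of H3K27ac-only windows against 6.10% and 6.03% downstream, and in 5.80% and 5.81% of CTCF-only windows against 5.72% and 5.69%. The E protein core CAGCTG was present in 12.1% and 11.0% of H3K27ac-only windows against 5.20% and 4.73% downstream, and in 6.41% and 6.10% of CTCF-only windows against 5.23% and 5.23%. The Runx core TGTGGT was present in 10.4% and 10.3% of H3K27ac-only windows against 7.13% and 7.201%, and in somewhat more of the CTCF-only windows, 11.7% and 11.5% against 8.66% and 8.58%. Runx matches were most frequent at peaks with neither mark, 14.3% and 14.8% against 8.21% and 7.59%. The reverse complement of the Runx core shares letters with the CTCF motif, so 1 stretch can match both. The CTCF motif was in 41.4% and 36.3% of the windows with neither mark and in 84.7% and 83.7% of CTCF-only windows. The part of shared letters in the Runx shares was not tested. The core CTTTGA, present at Cd4 and Cd8b1, was in 6.87% and 6.82% of H3K27ac-only windows against 6.92% and 6.89% downstream, so it was no more frequent there than beside the peaks. Base composition differed as well: H3K27ac-only windows were 57.8% and 56.2% G or C against 47.5% and 47.2% downstream, and its part in the shares was not tested. A match describes letters in a window and does not show that a factor was bound.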

How the data were processed

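Rad21 ChIP-seq of 2 wild type libraries was deposited as narrow peak lists, 1 per library, on build mm9 per the submitters' processing notes, whose list of tools includes MACS2 2.1.0 and Bowtie 1.0.0 with no role stated. The fold is the enrichment given by the authors' caller, and the background it was taken over is not stated. The authors' files also give −log10 p and −log10 q, of which q served as a filter on each listed summit, and a score that was not used. Summits are the deposited distances from the peak start. For the control, thresholds and filters of peak calling, not given in the sources used here, no assumption was made. The smallest −log10 q was 1.31 and 1.32.

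Rows with the same coordinates were counted as 1 peak with several summits. For a merged region the summits of all its peaks in a list were added up. Overlap needed 1 bp. Gene models were the longest per symbol of the GENCODE vM1 protein-coding genes on NCBIM37, the assembly shown as mm9. A gene's peaks were counted within its body and 20 kb on either side, so 38.0% and 37.6% of peaks counted for several genes. Genes and regions were named by rank: the 12 densest and 8 with most peaks in the worse of both lists, the 8 widest regions, the 8 with most summits, the 5 longest genes without a peak, entries of the gene lists, and the regions of best fold. From the gene lists further genes beyond the first 6 were named, and those were chosen after their values were seen. The gene lists, the members and the tests were chosen with earlier results of these data known. The 4 short motifs were added after the data were seen.

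All results are descriptions of 2 lists of a single condition, so no test between groups was run. Python 3.11.15, pandas 2.3.3, numpy 2.4.6 and pysam 0.24.0 were used. Counting, merging and motif searches were tested on simulated data and recovered what was planted. The alternatives were other flanks, a −log10 q of at least 5, equal numbers of top peaks, stricter overlap, single H3K27ac lists, an exact or wider motif search, and each replicate left out.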

Additional observations from a re-analysis of the deposited data

Results flagged for a closer look

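Replicate 2 listed 15 Rad21 peaks on the mitochondrial chromosome, which lies outside the chromosomes compared, and replicate 1 listed 0. No control list was available to set beside them, and the mitochondrial genome is present in many copies per cell. These peaks entered no other result.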

How the results depend on the processing

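The ratio of median widths, H3K27ac-only against CTCF-only peaks, reversed with a −log10 q of at least 5, from 0.941 to 1.15, with 28593 and 35134 peaks left. The cause was not tested. That ratio was 0.937 with 50% overlap, 0.932 with H3K27ac replicate 1 alone, 0.971 with replicate 2 alone and 0.944 by the highest summit. Genes with a peak in both lists fell from 14982 to 8989 with no flank. The median width was 256.5 bp with a −log10 q of at least 5 and 243 bp with equal numbers of peaks. The share of regions with several summits in both lists was 49.8% over single peaks, the several-summit difference 8.11 percentage points with a −log10 q of at least 5, and the summit offset 9 bp with the exact motif. The q filter acted on each listed summit, so weaker summits of kept peaks were not counted there. Leaving out each replicate gave 15395 to 15973 genes, 3.24 to 4.50% of peaks with several summits, widths of 228 to 237 bp, ratios of 0.9409 to 0.9412, differences of 5.85 to 6.86 percentage points and offsets of 7.5 to 8.5 bp. With 2 lists, leaving 1 out always moves a mean by less than 1 SD, so these ranges say nothing of stability. Apart from left-out replicates, 17 alternatives for these results, those for the 200 densest genes included, left the value close. Close meant a move of less than 1 SD or a count within 1.5 times. For regions with several summits in both lists it meant within the Wilson interval. For the 12 densest genes 7 moved the density by less than 1 SD and 29 by more, and without replicate 1 or 2 the density of Cd8b1 was 62.2 or 34.8. The 200 densest genes shared 116 to 129 genes, of which 17 with no flank and 64 with 50 kb were among the 121 reported. Leaving out a replicate was not run for regions with several summits in both lists, since 1 list gives no match. No paired analysis was possible because no result compares groups by a test. Read depth is unknown, so what it limits could not be measured.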
